A study of Rattus norvegicus with 4 samples.

Results

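Curated non-coding transcripts are RNAs that RefSeq annotators have recorded as making no protein, and their accessions start with NR_. On the rat array used here, 117 of the 45598 non-control probes carried such an accession, and they were the members of this description whatever their signal. They stood for 97 transcripts, of which 91 could be matched to 88 genes through their accession and 6 could not. The cells were rat oligodendrocyte precursor cells (OPCs), the progenitors that mature into myelinating oligodendrocytes, from postnatal day 2 cortex, and they were grown for 3 days with bFGF and PDGF before the medium was switched to a differentiating one. The control group, siNEG, received 50 nM of a non-targeting RNA pool and the silenced group, siGPR17, received 50 nM of a pool of siRNAs against rat Gpr17. All of these primary cells were lysed 48 h after transfection, at day in differentiation 2. Each group had 2 samples, given in the study's design as independent, and each sample was read on 1 one-color Agilent array. The question was which non-coding transcripts are present in these OPCs and whether any of them differed after silencing of the receptor.

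Long non-coding RNAs are transcripts that act as RNA, for example by tethering chromatin regulators, by binding microRNAs or by being transcribed across a neighbouring gene. Structural RNAs form the cores of machines such as the ribosome, the signal recognition particle, RNase P and telomerase. Transcribed pseudogenes are copies of protein-coding genes that have lost the reading frame and are still copied into RNA. In the oligodendrocyte lineage long non-coding RNAs have been linked to fate choice and to the onset of myelin gene expression. By the type that the RefSeq gene table of the assembly GRCr8 gives, the 97 transcripts comprised 35 long non-coding RNAs with a given name, 36 with a provisional symbol (LOC or RGD), 14 transcribed pseudogenes, 6 structural RNAs and the 6 unmatched accessions. The gene table of microRNAs held 0 of the member genes, and 0 of 33 microRNA genes listed for the oligodendrocyte lineage were on the array.

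Of the 8 genes with a probe of unadjusted p under 0.05 in the comparison below, 5 had a promoter in the RefSeq table (GRCr8). These are shown because the annotated starts of those genes lie there, and no start of transcription was measured here. Each run covers 250 bases before the start of the gene and 50 after it, on the strand of the gene. Capitals mark every match, on either strand, to 4 short motifs. The first, TGACGTCA, is known as the cyclic AMP response element. The GC box was searched as GGGCGG, the box of the NF-Y factor as CCAAT and the TATA box as TATAAA. Meg3 lies at chr6:134273806-134274105 on the plus strand, Vof16 at chr8:50849882-50850181 on the plus strand, LOC100910558 at chr5:102021875-102022174 on the plus strand, Tug1 at chr14:82750485-82750784 on the minus strand and Apeg3 at chr1:76155366-76155665 on the minus strand.
Meg3: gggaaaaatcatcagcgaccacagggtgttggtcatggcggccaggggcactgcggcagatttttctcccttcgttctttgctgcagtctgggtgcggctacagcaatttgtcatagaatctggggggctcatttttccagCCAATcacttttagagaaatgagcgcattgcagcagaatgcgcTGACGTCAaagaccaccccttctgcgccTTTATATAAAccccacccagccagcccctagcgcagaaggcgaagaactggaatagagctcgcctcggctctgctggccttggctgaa
Vof16: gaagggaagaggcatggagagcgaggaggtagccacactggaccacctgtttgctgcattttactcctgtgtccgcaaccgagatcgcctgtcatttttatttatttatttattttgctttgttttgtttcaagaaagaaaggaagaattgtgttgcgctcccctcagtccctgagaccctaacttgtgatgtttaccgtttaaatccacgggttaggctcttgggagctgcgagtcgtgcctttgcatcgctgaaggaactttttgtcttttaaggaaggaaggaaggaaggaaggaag
LOC100910558: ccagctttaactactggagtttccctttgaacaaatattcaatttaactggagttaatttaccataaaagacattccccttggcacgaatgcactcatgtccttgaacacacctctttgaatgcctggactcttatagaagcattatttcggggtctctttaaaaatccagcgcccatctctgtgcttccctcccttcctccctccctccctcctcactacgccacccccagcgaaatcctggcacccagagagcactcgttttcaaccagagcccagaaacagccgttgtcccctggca
Tug1: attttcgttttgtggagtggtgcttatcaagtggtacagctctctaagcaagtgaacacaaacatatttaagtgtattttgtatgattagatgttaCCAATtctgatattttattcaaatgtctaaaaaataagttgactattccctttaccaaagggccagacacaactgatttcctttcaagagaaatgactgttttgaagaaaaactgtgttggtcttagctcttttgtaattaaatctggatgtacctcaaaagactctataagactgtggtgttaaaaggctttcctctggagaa
Apeg3: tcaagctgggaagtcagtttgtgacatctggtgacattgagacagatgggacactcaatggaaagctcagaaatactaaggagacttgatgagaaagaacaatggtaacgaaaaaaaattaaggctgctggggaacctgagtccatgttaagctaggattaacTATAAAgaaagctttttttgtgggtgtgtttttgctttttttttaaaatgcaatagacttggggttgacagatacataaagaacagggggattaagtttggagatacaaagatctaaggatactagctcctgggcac

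The Meg3 promoter held 1 match to TGACGTCA, 1 to CCAAT and 2 to TATAAA, which lie on opposite strands and overlap in 1 run of capitals. The Tug1 promoter held 1 match to CCAAT and the Apeg3 promoter 1 to TATAAA, and those of Vof16 and LOC100910558 held none of these letters. The table held 60 promoters of 56 member genes. Over all 33469 promoters of the table, TGACGTCA occurred in 1.83%, GGGCGG in 33.1%, CCAAT in 37.5% and TATAAA in 14.2%. Over the member promoters the shares were 5% (3 of 60), 33.3%, 33.3% and 20%. A match is only a run of letters within these 300 bases.

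Detection was read from the flag that the scanner software sets for a probe well above the background of its array. Of the 117 probes, 68 carried the flag on all 4 arrays, 4 on 2 or 3 arrays, 7 on 1 array and 38 on none. Per array, 73 and 71 probes were well above background in siNEG and 74 and 71 in siGPR17 OPCs. The 72 probes (61.5%) flagged on at least 2 arrays were taken as tested, and this filter does not look at the groups. That share was the same as the 61.5% of all probes with a value on every array, below the 71.0% of curated messenger RNAs (NM_ accessions) and above the 36.5% of predicted non-coding transcripts (XR_ accessions). With several probes for some genes, 60 of the 97 transcripts had a tested probe and 37 had none. The 6 structural RNAs were all detected, with 8 of 8 probes flagged on every array. Of the long non-coding RNAs, 25 of 43 probes with a given name and 22 of 37 with a provisional symbol were tested. Pseudogenes had 11 of 22 probes tested, and the unmatched accessions 6 of 7.

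Signals are given as the intensity of the probe divided by the 75th percentile of its array and multiplied by a single factor, 599.6, for all arrays. They are normalized signals without a unit of amount, and since the brightness of a probe also depends on its sequence, the signals of different probes are not set against each other as amounts of RNA. In siNEG, the tested probes spanned 18.3 to 458786, with a median of 1132. Probes that were not well above background on any array stayed at or below 19.9 on every array. They included those of Abhd11-as1, Pincl, Sert1, Strit1, Defb16-ps, Hmox2-ps1, Rps4x-ps1 and Rps7-ps20, whose levels are known here only as not well above background.

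**Figure D1:**
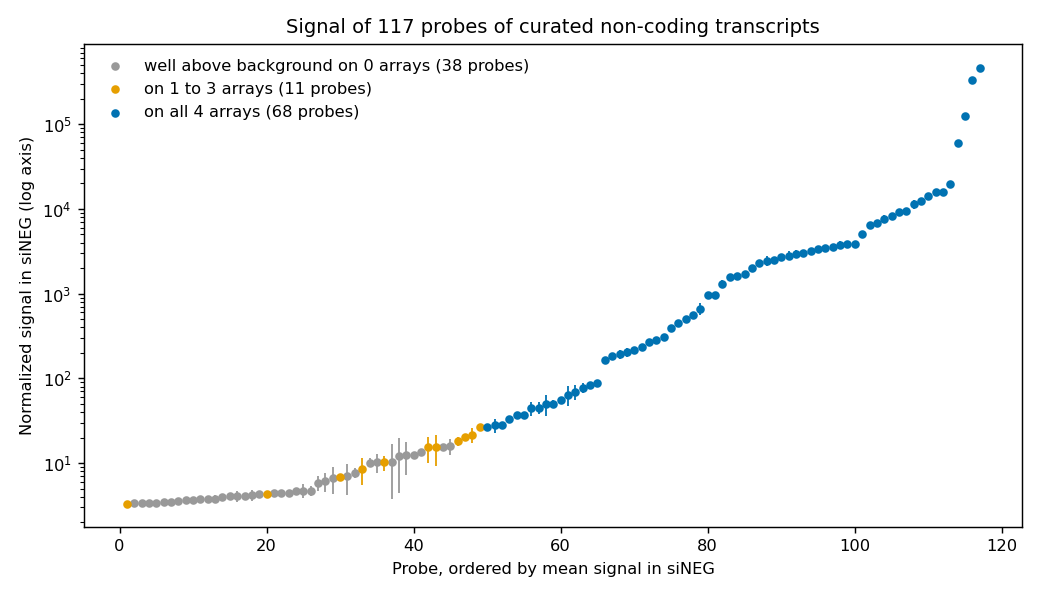
Mean normalized signal in siNEG (log axis) of each of the 117 probes, ordered by that mean, with bars that span the 2 arrays. The 38 probes that were well above background on 0 arrays lie at or below 19.9, and the 68 probes flagged on all 4 arrays reach 458786.

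Of the 10 brightest member probes, 4 belonged to structural RNAs. The labelling kit used here starts from the poly(A) tail, which mature ribosomal RNA, RNase P RNA and telomerase RNA lack, so their signals are not read as amounts. Rn45s, the precursor of the ribosomal RNAs, had 3 probes with mean siNEG signals of 458786 ± 40751, 123435 ± 2733 and 15933 ± 1272 (SD, n = 2). The unmatched accession NR_038113 was at 335387 ± 29474 (SD, n = 2). Rn7sl1, the RNA of the signal recognition particle that guides new proteins to the endoplasmic reticulum, was at 19679 ± 391 (SD, n = 2). Rpph1, the catalytic RNA of RNase P, was at 6377 ± 451 and Terc, the template RNA of telomerase, at 33.1 ± 0.125 (SD, n = 2). No non-control probe was saturated on any array.

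Among long non-coding RNAs, Gas5, a growth arrest transcript whose introns carry small nucleolar RNAs, gave 56238 and 64900 in siNEG. The provisional genes LOC100912041 and LOC102549726 gave 14113 ± 1619 and 11444 ± 1924, and the pseudogene Selenok-ps2 12524 ± 336 (SD, n = 2). These 3 and Gas5 were within the 10 brightest probes, together with the 3 probes of Rn45s, NR_038113, Rn7sl1 and 1 probe of Prrc2c. Of the known long non-coding RNAs listed, H19, an imprinted transcript expressed from the maternal chromosome, was at 287 ± 8.78 and Miat, a nuclear transcript also known as Gomafu, at 553 ± 13.1 (SD, n = 2). Both were well above background on all 4 arrays.

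The silenced samples were compared with siNEG by limma on log2 signals across all 28016 tested probes, with two-sided p-values adjusted by the Benjamini-Hochberg method over all of them. The thresholds were a fold of 1.5 and an adjusted p under 0.07, those of the study. The test, the filter and the scaling were chosen here, so the counts are not those of the study. Of the 72 tested non-coding probes 0 were past both, where 1 of all tested probes was, which is 0.00357%. Their adjusted p-values ran from 0.210 to 0.995. At an unadjusted p under 0.05, 5 of the 72 (6.94%) were higher in siGPR17 OPCs, against 7.58% of all tested probes, and 5 (6.94%) were lower, against 9.12%. The groups did not overlap, with siGPR17 above, for 19 members (26.4%), against 27.4% of all tested probes, and with siGPR17 below for 14 (19.4%), against 25.2%. A fitted fold of 1.5 or more was reached by 3 members (4.17%), against 6.64%. These shares were near or below those of the array as a whole.

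Most differences were small. With the 75th percentile as the scale, 44 members had a higher and 28 a lower fitted value in siGPR17 OPCs, which is 61.1% higher against 51.6% of all tested probes. The median log2 difference, siGPR17 minus siNEG, was 0.03 against 0.01 over all tested probes, and 47 of the 72 members lay within 0.2 of 0. This split followed the scaling, since 54 were higher and 18 lower with the spike-in controls as the scale, a setting that moved the median of all tested probes to 0.14. Without siNEG replicate 1 it was 36 and 36, and without siGPR17 replicate 1 it was 37 and 35. By class, the median was 0.03 for long non-coding RNAs with a given name, 0.02 for provisional ones, 0.09 for pseudogenes and 0.17 for structural RNAs. With 2 arrays a group 0.333 is the smallest two-sided p of an exact permutation test, so single members are read from limma. Its p-values set a difference against the spread between these samples, with each probe's variance drawn toward that of all tested probes.

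**Figure D2:**
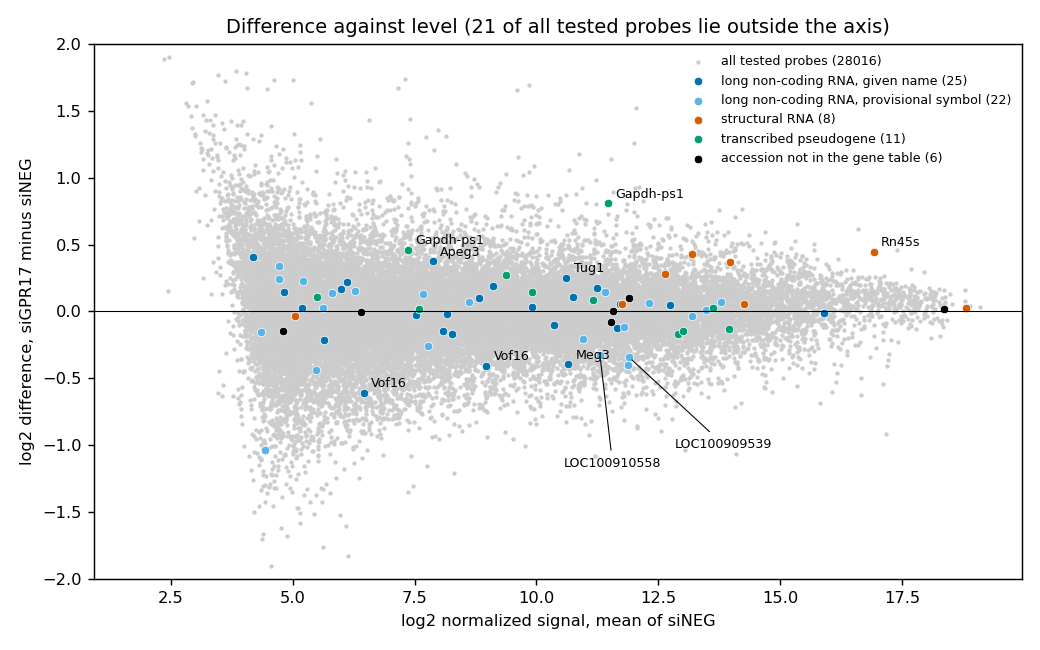
Log2 difference of siGPR17 minus siNEG against the log2 mean normalized signal in siNEG, for all 28016 tested probes (grey) and the 72 non-coding probes (colored by class). The 10 non-coding probes with an unadjusted p under 0.05 are named, and they lie within the cloud of all probes.

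The 10 probes with an unadjusted p under 0.05 belonged to 8 transcripts, 4 lower and 4 higher in siGPR17 OPCs. Of the lower ones Meg3 is the best known, an imprinted long non-coding RNA expressed from the maternal chromosome between Dlk1 and Dio3, whose promoter is the first of those printed above. Its probe A_44_P1145900 gave 1619 and 1609 in siNEG and 1261 and 1196 in siGPR17 OPCs. Both silenced samples were thus below both controls, and the log2 difference was -0.39 (standard error 0.088, unadjusted p = 0.0101 and adjusted p = 0.216 from limma). This probe was printed at 10 spots of each array, which gives the error within an array. Its spots lay between 1482 and 1680 and between 1541 and 1660 on the siNEG arrays. On the siGPR17 arrays they lay between 1223 and 1310 and between 1151 and 1236. The spots of an array repeat a single sample, so they do not measure the spread between samples. For LOC102549726 the spots of the siNEG arrays were also apart from each other, at 9446 to 10649 and 12295 to 13743. The second Meg3 probe, A_44_P1145890, gave 274 and 270 in siNEG and 250 and 242 in siGPR17 OPCs. It pointed the same way by a smaller amount, with a log2 difference of -0.14 (standard error 0.086, adjusted p = 0.452 from limma).

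Markers of neurons, which express Meg3 strongly, were read beside it. All 11 tested markers of 12 had a lower fitted value in siGPR17 OPCs, with a median log2 difference of -0.25. Of these, 0 were past the thresholds and 6 had an unadjusted p under 0.05 in limma, a p that 8.73% of all genes had with a lower value. Gad2, among these 6, was well above background on only 2 arrays, at 18.7 and 18.5 in siNEG and 10.5 and 10.9 in siGPR17 OPCs. It may have been tested only through siNEG, where it was higher. The summed signal of the tested neuron markers was 15893 to 16986 in siNEG and 13019 to 13682 in siGPR17 OPCs. Dcx and Map2 gave the largest parts of that sum, with siNEG means of 8384 and 4386. Which cells expressed them was not measured, so the sum is not read as an amount of neurons. Syt1 overlapped, at 103 and 100 in siNEG and 106 and 96.9 in siGPR17 OPCs. The vesicular glutamate transporter Slc17a7, which defines excitatory neurons, was not well above background, at 11.4 and 16.0 in siNEG and 5.18 and 3.53 in siGPR17 OPCs. Their part in the Meg3 result was not tested. In these bulk samples fewer cells of a type and less RNA per cell cannot be told apart. The protein-coding neighbours of Meg3 were low, with Dlk1 at 31.9 and 24.8 in siNEG and 36.6 and 28.6 in siGPR17 OPCs, and Dio3 well above background on 1 array.

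Vof16, a rat transcript first described in brain ischemia, was lower on both of its probes. A_42_P513930 gave 514 and 491 in siNEG and 379 and 379 in siGPR17 OPCs, a log2 difference of -0.41 (standard error 0.087, adjusted p = 0.215 from limma). A_44_P371777 gave 94.6 and 82.1 against 59.5 and 56.2, a log2 difference of -0.61 (standard error 0.113, limma's adjusted p = 0.210). With normexp background correction this second value was -0.24. The groups did not overlap on either probe, and the unadjusted p-values from limma were 0.00865 and 0.00522.

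The other 2 lower transcripts have provisional symbols. LOC100910558 gave 2486 and 2568 in siNEG and 2056 and 1966 in siGPR17 OPCs, a log2 difference of -0.33 (standard error 0.088, adjusted p = 0.241 from limma). LOC100909539 was read by 1 probe for each of 2 transcript records. A_64_P083334 gave 3556 and 4104 against 3128 and 2894, a log2 difference of -0.34 (standard error 0.117, adjusted p = 0.282 from limma). A_44_P1090509 gave 3425 and 4146 against 3086 and 2639 and a log2 difference of -0.40, and with its wider spread the unadjusted p was 0.0529. Without siNEG replicate 2 that value was -0.26.

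Of the 4 higher transcripts Gapdh-ps1, a pseudogene of the glycolytic enzyme Gapdh, differed most. Its probe A_44_P1363134 gave 3166 and 2467 in siNEG and 4858 and 4922 in siGPR17 OPCs. The log2 difference was 0.81 (standard error 0.151, adjusted p = 0.210 from limma), the largest fold among the members flagged on all 4 arrays. With normexp background correction its adjusted p was 0.0369, and with the trend and robust options of limma's eBayes it was 0.0302, so that it was past both thresholds in these alternatives. The second probe, A_64_P005659, gave 151 and 180 in siNEG and 239 and 215 in siGPR17 OPCs, a log2 difference of 0.46 (standard error 0.133, limma's adjusted p = 0.253). A pseudogene can share long stretches with its parent, so these probes may read Gapdh itself. The 8 tested probes of Gapdh were all higher in siGPR17 OPCs, with log2 differences from 0.14 to 0.39. Of them, 1 had an unadjusted p under 0.05 in limma, which 7.58% of all tested probes had with a higher value. The probes of Gapdh read the same gene in the same samples, so they are not independent. The difference between the pseudogene and its parent was not tested.

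Apeg3, the antisense transcript of the imprinted gene Peg3, gave 246 and 223 in siNEG and 294 and 314 in siGPR17 OPCs. The groups did not overlap, and the log2 difference was 0.38 (standard error 0.103, limma's adjusted p = 0.244). The 4 tested probes of Peg3, which encodes a zinc finger protein, were also higher, from 0.05 to 0.28 on the log2 scale, with both silenced samples above both controls on each. Of these, 1 had an unadjusted p under 0.05.

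Tug1, a widely expressed long non-coding RNA named for its rise with taurine in the retina, was higher on both probes. A_43_P10908 gave 1582 and 1557 in siNEG and 1854 and 1882 in siGPR17 OPCs, a log2 difference of 0.25 (standard error 0.085, adjusted p = 0.282 from limma). A_44_P219092 gave 442.7 and 466.5 against 521 and 456, so that the groups overlapped, and its log2 difference was 0.10 (standard error 0.11).

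The fourth was the ribosomal RNA precursor Rn45s, whose 3 probes gave unlike differences. A_44_P186336 gave 125368 and 121503 in siNEG and 156016 and 181586 in siGPR17 OPCs, a log2 difference of 0.45 (standard error 0.114, adjusted p = 0.234 from limma). A_44_P1090387 gave 16833 and 15034 against 18599 and 22773, a log2 difference of 0.37 (standard error 0.143). The brightest, A_44_P1112711, gave 429971 and 487601 against 447149 and 483611, overlapping groups and a log2 difference of 0.02 (standard error 0.112). Rn18s and Rn5-8s are cut from this precursor, so a probe may read both. Rn18s, the RNA of the small ribosomal subunit, gave 10296 and 8493 in siNEG and 11284 and 14071 in siGPR17 OPCs, a log2 difference of 0.43 with an unadjusted p of 0.0613 in limma. Without siGPR17 replicate 2 it was 0.27, and that of A_44_P1090387 was 0.23. Rn5-8s, of the large subunit, gave 3306 and 3568 against 3440 and 3707, overlapping groups.

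**Figure D3:**
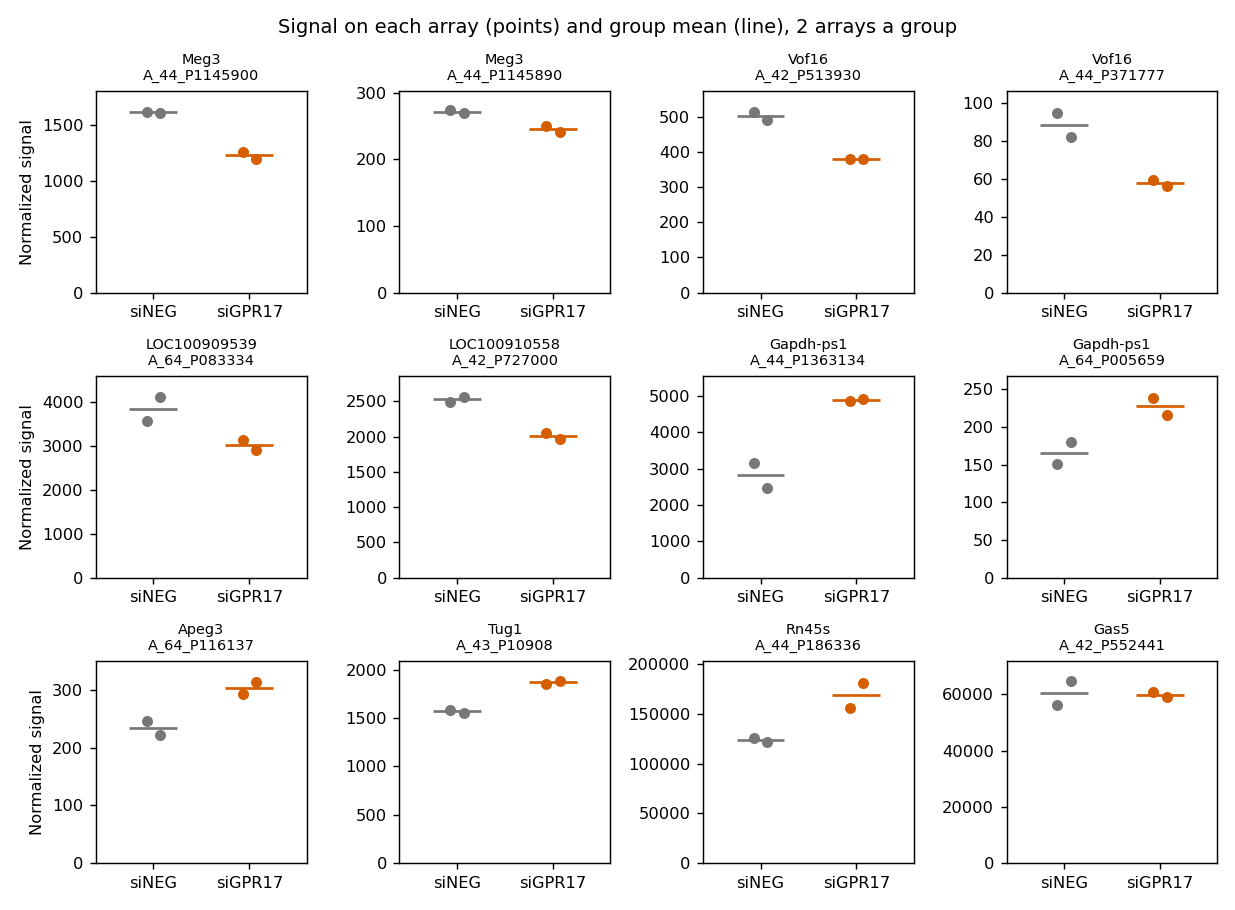
Normalized signal on each array (points) and the mean of each group (line), with siNEG in grey and siGPR17 in orange, for 12 probes with vertical axes that start at 0. Points of the groups lie apart in 11 panels, and Gas5, in the last panel, overlaps.

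The remaining structural RNAs had no unadjusted p under 0.05 either. Rpph1 gave 6695 and 6058 in siNEG and 8198 and 7302 in siGPR17 OPCs, a log2 difference of 0.28 (standard error 0.114, 95% confidence interval -0.03 to 0.59). Rn7sl1 gave 19402 and 19956 against 19107 and 21944, with a log2 difference of 0.06 and an interval of -0.24 to 0.36. Terc gave 33.2 and 33.0 against 32.2 and 32.3, a log2 difference of -0.03 with an interval of -0.26 to 0.20. For all of these the interval included 0, and it also left room for differences of 0.2 on the log2 scale in at least 1 direction.

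Of the 5 known long non-coding RNAs matched by their listed symbol to a curated non-coding accession, the 3 other than Meg3 and Tug1 had no unadjusted p under 0.05. Gas5 gave 60793 and 58996 in siGPR17 OPCs, inside the range of siNEG, and the interval of its log2 difference of -0.01 ran from -0.32 to 0.29. H19 gave 281 and 293 in siNEG and 309 and 259 in siGPR17 OPCs, a log2 difference of -0.02 with an interval of -0.36 to 0.32. Miat gave 544 and 562 against 645 and 619, so that the silenced samples were both above the controls, with a log2 difference of 0.19 (standard error 0.088, limma's adjusted p = 0.358). The next transcripts were named after their values had been seen, for their known roles. Dancr, which holds progenitors of several tissues undifferentiated, had a log2 difference of -0.13, and Oip5-as1, also called Cyrano, of 0.03 and 0.05 on its probes. The list held Oip5-as1 under another symbol, so it was not matched by name. Snhg4, a host gene of small nucleolar RNAs, had 0.11 and Tincr, known from epidermal differentiation, 0.18. None of these 4 had an unadjusted p under 0.05.

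Further members whose arrays did not overlap were given by the rule for the largest differences. LOC690120 gave 219 and 218 in siNEG and 192 and 173 in siGPR17 OPCs, a log2 difference of -0.26. LOC100911627 gave 1917 and 2056 against 1716 and 1721, and Cistr 54.8 and 45.1 against 43.5 and 42.2, with a log2 difference of -0.21 for each. That of Cistr was -0.07 without siNEG replicate 1, -0.35 without siNEG replicate 2 and -0.02 with normexp, and that of LOC690120 was -0.13 with normexp. LOC100911360 gave 37.0 and 37.6 against 50.9 and 37.6 on 1 probe, so that siGPR17 replicate 2 was level with siNEG. Its log2 difference of 0.23 was 0.01 without siGPR17 replicate 1, 0.45 without siGPR17 replicate 2 and 0.14 with normexp. Its other probe was well above background on 0 arrays.

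Of the tested probes, 2 were well above background on both arrays of one group and on neither of the other. They were tested only through the group where they were high, so their differences are given as a description. RT1-T24-2, which is annotated in the major histocompatibility complex of the rat, gave 20.5 and 16.0 in siNEG and 23.3 and 24.8 in siGPR17 OPCs, where alone it was well above background. The fitted log2 difference of 0.41 was 0.09 with normexp and 0.23 without siNEG replicate 2, and it is no bound, since the siNEG signals are the probe's own. LOC100910802 gave 25.995 and 17.39 in siNEG and 6.78 and 15.9 in siGPR17 OPCs. The reference on each dim array was the lowest signal well above background, 13.4 and 7.38, or the probe's own signal, whichever was higher. Against it the siNEG signal was 1.46-fold higher. This is no bound either, since an untested probe of LOC100911360 gave 15.9 and 18.7 on these arrays without being well above background. The fitted log2 difference of LOC100910802, -1.04, was -0.18 with normexp, -0.42 without siGPR17 replicate 1 and -1.65 without siGPR17 replicate 2. Both are dim probes, and for LOC100910802 the values of siGPR17 replicate 2 and siNEG replicate 2 were close.

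Single arrays gave 2 further signals, both named after their values had been seen. Tnxa-ps1, a pseudogene of the tenascin gene Tnxb, gave 98.7 on siGPR17 replicate 1 and between 4.003 and 4.534 on the other arrays. LOC102548847 gave 103 on siGPR17 replicate 1 and 10.8 on siGPR17 replicate 2, against 24.2 and 28.6 in siNEG. Each was read by 1 spot, and neither was seen on the replicate array.

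Where a gene had several probes they could be set against each other. Of 16 such genes, 9 had more than 1 tested probe, and the sign of the difference was the same on all of them for 8. The exception was Prrc2c, a gene for an RNA-binding protein elsewhere that the rat table types as a transcribed pseudogene, whose 5 probes had log2 differences from -0.17 to 0.14. Another 5 genes had both tested and untested probes, among them Cox6c-ps1, at 772.5 and 555.5 in siNEG and 825.1 and 760.9 in siGPR17 OPCs on one probe and not well above background on the other. For C7h12orf54 and Pincl no probe was tested.

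Other pseudogenes were set beside their related gene. Hmgb1-ps2, a copy of the gene for a chromatin protein, gave 52.3 and 38.0 in siNEG and 43.5 and 53.1 in siGPR17 OPCs, overlapping groups with a log2 difference of 0.11. The 9 tested probes of Hmgb1 were all lower, from -0.72 to -0.10 on the log2 scale, without overlap on any, and 2 of them had an unadjusted p under 0.05. Selenok-ps2 had a log2 difference of 0.02 while both probes of Selenok were lower, at -0.11 and -0.09. Cox6c had -0.04 and 0.07 on its probes, and its pseudogene had 0.27, which became 0.04 when siNEG replicate 2 was left out and 0.51 when siNEG replicate 1 was. The difference within each of these pairs was not tested.

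**Figure D4:**
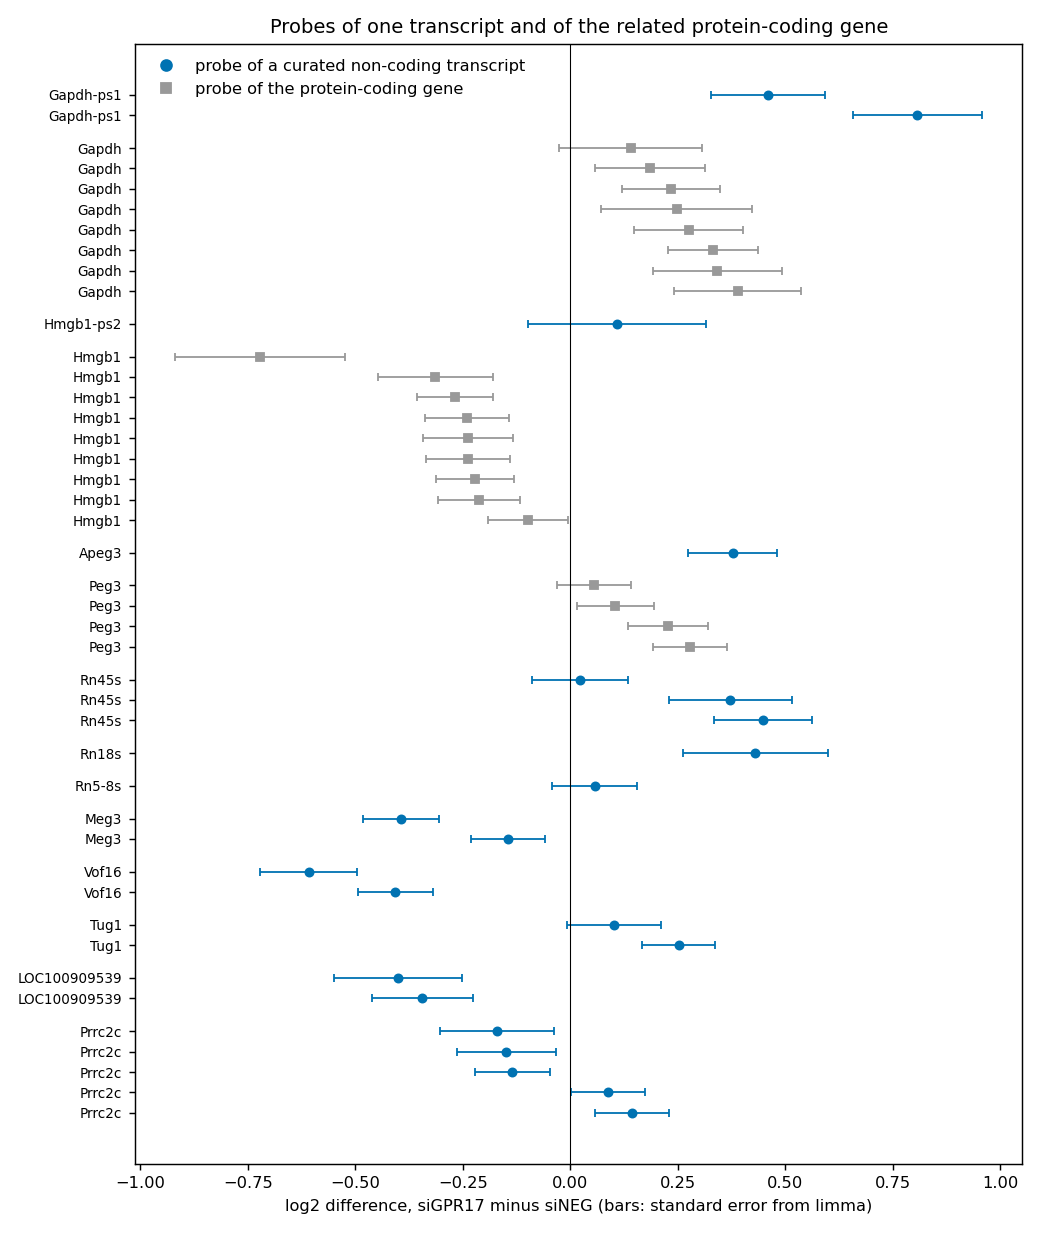
Log2 difference of siGPR17 minus siNEG for single probes, with bars of 1 standard error from limma, for non-coding transcripts (blue circles) and the related protein-coding gene (grey squares). Gapdh-ps1 and Gapdh lie to the right of 0, Hmgb1 lies to the left with its pseudogene at 0.11, and the 5 probes of Prrc2c lie on both sides.

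Protein-coding partners of non-coding RNAs were read from 5 fixed lists, over genes represented by their brightest tested probe. At an unadjusted p under 0.05 in limma, 7.43% of all 11656 genes were higher and 8.73% lower, and 0 genes of any of these lists were past the thresholds. In the microRNA machinery, 6 of 9 tested genes were higher and 3 lower, with a median log2 difference of 0.05 against 0.01 for all genes. Tarbp2, a partner of Dicer, had 0.33 (standard error 0.092) and Ran, the GTPase of nuclear export, 0.28 (standard error 0.091). Ago1, an Argonaute protein that carries the microRNA, gave 13769 and 13500 in siNEG and 11277 and 9905 in siGPR17 OPCs, a log2 difference of -0.37 (standard error 0.107). These 3 had an unadjusted p under 0.05, and their adjusted p-values from limma were 0.244, 0.271 and 0.254.

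The paraspeckle proteins, which assemble on long nuclear RNAs, had 4 of 9 genes higher and 5 lower, with a median of -0.04. Dazap1 was at 0.26 and Pspc1 at -0.27, both at an unadjusted p under 0.05. The proteins of small nucleolar ribonucleoproteins, which modify ribosomal RNA, had 7 of 9 higher, and their median was 0.05, with Fbl at 0.14 and Dkc1 at 0.05, and 0 had an unadjusted p under 0.05. Nonsense-mediated decay, which degrades many non-coding transcripts with short reading frames, had 2 of 8 higher and a median of -0.07, also with 0. Of 12 tested imprinted protein-coding genes, 8 were higher and 4 lower, and the median was 0.07. Those with an unadjusted p under 0.05 were Igf2, a growth factor next to H19, at -0.44, and Plagl1, a zinc finger protein, at -0.48. Igf2 gave 193 and 236 in siNEG and 160 and 156 in siGPR17 OPCs, while H19 overlapped.

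Facts of the arrays bear on all of these values. Between 26997 and 28244 probes were well above background per array, and the 75th percentiles lay between 564.9 and 624.1 intensity units. All arrays were on 1 slide and in 1 scan, with the groups in different columns of the slide, so that column and treatment cannot be told apart. Gpr17 gave 1107 and 1113 in siNEG and 652 and 639 in siGPR17 OPCs (adjusted p = 0.209 from limma). Of the OPC markers all 10 on the array were tested and 9 were lower. Microglia markers had 9 of the 10 tested lower, with 13 on the array. The tested ones summed to 2718 to 4031 in siNEG and 2731 to 3183 in siGPR17 OPCs. Endothelial markers had 4 of the 5 tested higher (sum 1113 to 1200 against 1585 to 1678), with 8 on the array. Pecam1 and Cldn5 were well above background on 0 arrays. Fibroblast and mural markers had 4 of the 4 tested higher (sum 350 to 462 against 476 to 477), with 9 on the array. Dcn, Lum, Pdgfrb and Rgs5 were well above background on 0 arrays. Astrocyte markers had 5 higher and 5 lower, newly formed oligodendrocyte markers 4 and 3, and mature oligodendrocyte markers 4 and 5.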

How the data were processed

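RNA of 2 siNEG and 2 siGPR17 samples was labelled with Cy3 and hybridized to one-color arrays. The authors deposited 1 file per array with spot intensities from Agilent Feature Extraction 10.7.3.1, corrected for background by that software and not normalized between arrays. From the deposited intensity, the log2 value minus the 75th percentile of the array's non-control probes was computed here. Control spots and outlier flags were left out and spots of a probe averaged. Probes flagged on at least 2 of 4 arrays (28016) were fitted in R 4.3.3 with limma 3.58.1 (lmFit, then eBayes), without a block. The fit was also run on simulated data with independent noise and changes larger than most seen among the members. That run does not show how well differences of the size seen here are found.

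Accessions were matched without versions to a RefSeq table (GRCr8), used for names and promoters. The members and lists were chosen with earlier results of these data known. Named were listed non-coding RNAs, the 10 largest differences each way without overlap, the 10 brightest probes, probes detected in 1 group, and their parent genes, besides those said to be named after their values were seen. The normexp alternative (offset 50) was run on the deposited medians of spot and background intensity. Alternatives were other scalings and filters, the methods' t-test, a trend and robust variance model, a replicate block and leaving out each array.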

Additional observations from a re-analysis of the deposited data

How the results depend on the processing

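The number of arrays and the spread between them limit every value here, and dim probes vary most. Of all tested probes, 1 was past the thresholds in limma, 242 with normexp background correction and 420 with a trend and robust estimation. That count was 0 with spike-in scaling, with no filter on dim probes, with the filter on all 4 arrays, with the methods' t-test, with the replicate block and, as a range, from 0 to 0 when any 1 array was left out. Non-coding probes past the thresholds were 0, and 1 (Gapdh-ps1) with normexp and with trend and robust estimation. Those with an unadjusted p under 0.05 were 10 in limma, and 15 in both of these settings. They were 14 with the filter on all 4 arrays and 7 with spike-in scaling. Quantile normalization, median scaling, no filter on dim probes and the methods' t-test each gave 12. The 10 non-coding probes with an unadjusted p under 0.05 became 6 with the replicate block, and 4 to 17 when 1 array was left out, namely 17 without siNEG replicate 1, 6 without siGPR17 replicate 1 and 4 without siGPR17 replicate 2. When a group was left with 1 array, that array was assumed to vary like the other group. The 7 partner genes at that p became 4 with no filter on dim probes, 3 with the replicate block and 0 to 9 when 1 array was left out, with 0 without either siGPR17 replicate. Replicate numbers were shared between the groups, and same-numbered arrays lay in the same row of the slide. The deviations of same-numbered arrays from their group means correlated at -0.065 over probes. That value cannot tell whether the samples were prepared as pairs, and the main fit used no pairing.

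Of 45 tested named probes, 32 kept their sign in every alternative run. The sign of 13 turned in at least 1, all of them within 0.2 of 0 on the log2 scale in limma. Spike-in scaling adds the same amount to the log2 difference of every probe, and Dancr and Terc turned in that setting alone. With it the log2 difference was 0.00104 for Dancr, 0.12 for Gas5, 0.11 for H19 and 0.094 for Terc. With quantile normalization it was -0.00079 for NR_038113, -0.0881 for Rn45s A_44_P1112711 and -0.0019 for Selenok-ps2, and with normexp 0.0086 for H19. When 1 array was left out, the lowest and highest values were -0.12 and 0.091 for Gas5, -0.14 and 0.11 for H19, -0.12 and 0.34 for Hmgb1-ps2, -0.047 and 0.19 for LOC100912041, -0.16 and 0.18 for LOC102549726, -0.074 and 0.11 for NR_038113, -0.051 and 0.12 for Oip5-as1 A_42_P508415, -0.068 and 0.11 for Rn45s A_44_P1112711, -0.042 and 0.16 for Rn7sl1, -0.028 and 0.073 for Selenok-ps2 and -0.0100 and 0.36 for Tincr. The cause of the turns in settings other than spike-in scaling was not tested.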

Other observations

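Of the list of 38 known long non-coding RNAs, 2 were on the array under accessions of another type than those described above. Jpx, an activator of the X inactivation transcript recorded as a predicted non-coding RNA, gave 39.0 and 45.0 in siNEG and 27.7 and 33.3 in siGPR17 OPCs. Both silenced samples were below both controls, and the log2 difference was -0.46 (standard error 0.143, unadjusted p = 0.0301 and adjusted p = 0.265 from limma). Sra1, the steroid receptor RNA activator, recorded here as a messenger RNA, gave 2345 and 2587 in siNEG and 2523 and 2595 in siGPR17 OPCs, overlapping groups with a log2 difference of 0.05 (standard error 0.098).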
